A study of Mus musculus with 12 samples.

Results

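A set of 9 genes that mark the oligodendrocyte lineage and its myelin was followed through 12 RNA libraries of mouse astrocyte cultures. The lineage genes were Sox10, Olig1, Olig2 and Pdgfra, and the myelin genes were Mbp, Mag, Cnp, Mog and Mobp. They were chosen by name from 54356 annotated genes, and the deposited estimated counts of their transcripts were summed. The filter on low counts left 14607 genes for testing, among them 8 of the 9. Mog did not pass. The cultures came from midbrain or cortex of C57BL/6 mice. In each region, cells with a hairpin RNA directed at PTB (shPTB), the RNA-binding protein encoded by Ptbp1, had been kept for 2 or 4 weeks in medium for neuronal differentiation. Mock cells stayed in growth medium, so the hairpin and the medium changed together and cannot be told apart. Each of the 6 groups held 2 libraries, and the labels do not say that these came from separate cultures, so p-values measure the spread between these libraries only. The series asks how gene expression moves when cultured astrocytes are depleted of PTB and turned towards neurons.

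Oligodendrocytes wrap axons of the central nervous system in myelin. They arise from precursor cells that carry the receptor PDGFRα and divide in response to its ligand PDGF-A. The transcription factors OLIG2 and OLIG1 specify the lineage, OLIG2 also acts in neural progenitors and in some astrocytes, and SOX10 drives the switch to myelin genes together with MYRF. Myelin basic protein (Mbp) compacts the membrane, 2′,3′-cyclic nucleotide 3′-phosphodiesterase (Cnp) keeps cytoplasmic channels open, and Mag, Mobp and Mog encode an axon-facing adhesion protein, a small basic protein and a protein of the outer myelin surface. Some of these genes, among them Sox10, Mbp and Cnp, are also used by Schwann cells of the peripheral nerve.

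Libraries held 6022098 to 11385761 reads. Mitochondrially encoded genes took 36.4 to 48.3% of them in shPTB libraries and 16.9 to 22.7% in mock libraries, and levels are given as CPM, read counts relative to library size, with the size scaled by the trimmed mean of M-values (TMM). A floor of 3 reads was worth 0.163 to 0.576 CPM, and such limits cover counting error only. The target Ptbp1 measured 105 and 90.8 CPM at 2 weeks, 169 and 155 CPM at 4 weeks and 208 and 250 CPM in mock in midbrain. In cortex it measured 73 and 73.5 CPM at 2 weeks, 89.2 and 90.5 CPM at 4 weeks and 173 and 251 CPM in mock. It fell in each comparison with mock except midbrain at 4 weeks (log2 fold change -0.50 ± 0.20 (SE), adjusted p = 0.0744). The labels call the cells astrocytes, and all 10 astrocyte markers checked averaged at least 1 CPM in every group. Their levels were not steady: 4 rose and 2 fell in cortex at 2 weeks, and 4 and 4 at 4 weeks. In midbrain 2 rose and 2 fell at 2 weeks, and 3 and 4 at 4 weeks. Aldh1l1 fell, and Glul and S100b rose, in all 4 comparisons with mock. Scaled to total reads, 2 rose in each comparison, while 6 and 6 fell in cortex and 5 and 6 in midbrain. Neuron markers summed to 52.1 to 108 CPM in shPTB libraries and 134 to 218 CPM in mock libraries over 10 genes, but the 9 tested did not move one way: 5 rose and 3 fell in cortex at 2 weeks, 2 and 3 at 4 weeks, and 1 and 3, and 1 and 5, in midbrain. Stmn2, Tubb3 and Dcx fell in all 4 comparisons with mock and Syn1 rose in all 4 (log2 fold change 0.83 to 1.31). Scaled to total reads, 3 rose and 4 fell in cortex at 2 weeks, 1 and 4 at 4 weeks, and 0 and 5, and 0 and 6, in midbrain, and Syn1 did not pass (0.16 to 0.41). The summed level of 10 microglia markers was 35.3 to 95.1 CPM in shPTB libraries and 1197 to 1748 CPM in mock libraries, where all 10 averaged at least 1 CPM. The summed level of 9 fibroblast and pericyte markers was 51.1 to 336 CPM in shPTB libraries and 826 to 2214 CPM in mock libraries. These 9 did not move one way: 3 rose and 4 fell in midbrain at 2 weeks, and 3 and 5 at 4 weeks. In cortex 3 rose and 5 fell at 2 weeks, and 2 and 5 at 4 weeks. Scaled to total reads, 1 rose and 5 fell in midbrain at 2 weeks, and 1 and 6 at 4 weeks. In cortex the counts were then 1 and 5, and 0 and 6. The part of these marker shifts in the results below was not tested. Of 9 Schwann cell and neural crest markers, 2 passed the filter and Foxd3 had 0 reads in every group.

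Sox10 and the myelin genes Mbp, Mag, Mobp and Cnp rose in shPTB cortex cultures at both times. At 2 weeks Sox10 was 15.6-fold, Mbp 26.8-fold, Mag 54-fold, Mobp 15.7-fold and Cnp 1.82-fold higher than in mock. Olig2 fell at both times. Against cortex mock, 6 of the 8 tested genes rose and 1 fell at 2 weeks, and 5 rose and 1 fell at 4 weeks. Over all tested genes, 35.0% were called at 2 weeks (17.5% higher, 17.6% lower) and 39.4% at 4 weeks (18.5% higher, 20.9% lower). The median log2 fold change of the 8 genes was 2.53 at 2 weeks and 2.09 at 4 weeks, beside -0.11 and -0.12 over all genes. Both cortex comparisons use the same 2 mock libraries. In bulk RNA, a change in the number of cells of a type and a change in RNA per cell cannot be told apart.

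**Figure D1:**
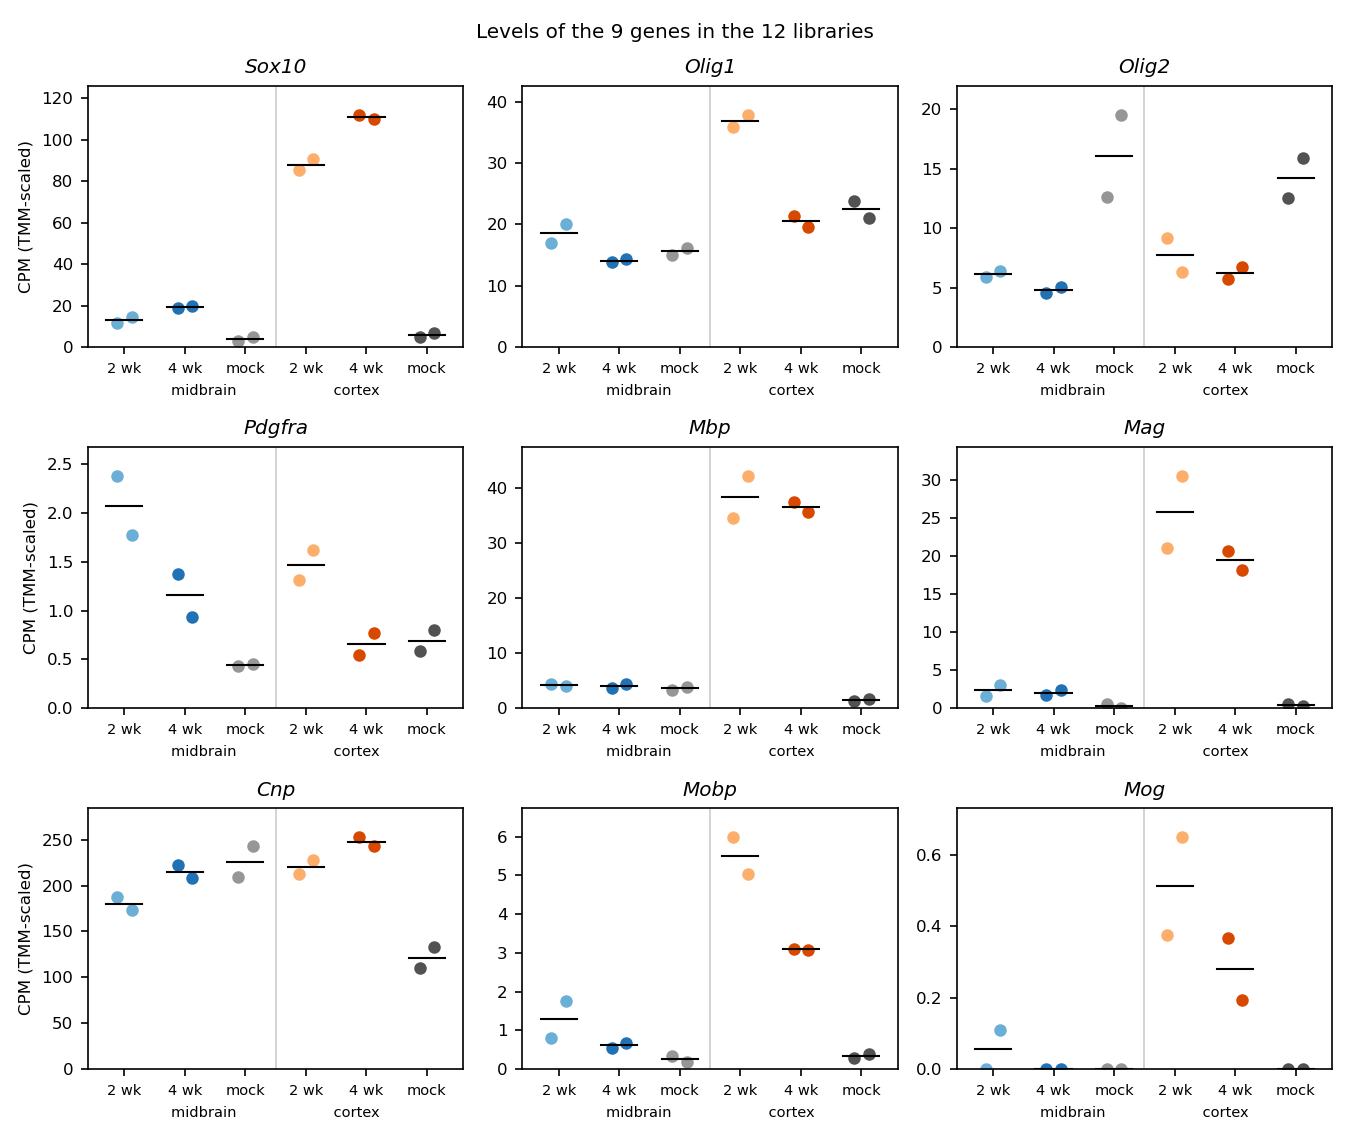
Levels of the 9 genes in CPM (TMM-scaled, linear axes from 0, a separate scale in each panel). Each point is a library, the black line is the mean of the 2 libraries, and groups run midbrain at 2 weeks, 4 weeks and mock, then the same for cortex. Sox10, Mbp, Mag and Mobp stand far above mock in the 4 shPTB cortex libraries, and Olig2 is lower in all 8 shPTB libraries than in the 4 mock libraries.

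Sox10 had 85.4 and 90.6 CPM in cortex at 2 weeks, 112 and 110 CPM at 4 weeks, and 4.65 and 6.68 CPM in mock. The shPTB libraries lay far above the mock libraries, with no overlap. The log2 fold change was 3.96 ± 0.25 (SE) at 2 weeks (adjusted p = 1.57e-06, edgeR quasi-likelihood test, as are all adjusted p-values here unless another tool is named) and 4.30 ± 0.25 at 4 weeks (adjusted p = 7.02e-07). The gene lies on chromosome 15 (79154908 to 79165240, minus strand, GRCm38).

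Olig1 had 35.9 and 37.8 CPM in cortex at 2 weeks, 21.4 and 19.6 CPM at 4 weeks, and 23.8 and 21.1 CPM in mock. It passed at 2 weeks with TMM scaling (log2 fold change 0.72 ± 0.17, adjusted p = 0.00794). Scaled to total reads the value was -0.04 (adjusted p = 0.894), and without the second cortex library of 2 weeks it was 0.67 (adjusted p = 0.0654). Olig1 shares 157 exonic bases (7.26% of its exons) with Gm15966 on the other strand, which had 18 reads in all. At 4 weeks it did not pass (-0.13 ± 0.17, adjusted p = 0.59).

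Olig2 lies upstream of Olig1 on chromosome 16 (91225457 to 91228677 and 91269772 to 91271933, both on the plus strand). It had 9.17 and 6.33 CPM in cortex at 2 weeks, 5.68 and 6.73 CPM at 4 weeks, and 12.5 and 15.9 CPM in mock. All 4 shPTB libraries were below both mock libraries, with a log2 fold change of -0.88 ± 0.28 at 2 weeks and -1.19 ± 0.28 at 4 weeks (adjusted p = 0.0298 and 0.00664). The call at 2 weeks was lost in DESeq2 (adjusted p = 0.0539), without the second cortex mock library (0.0975) and without the second 2-week library (0.226). The call at 4 weeks was lost without the first 4-week library (0.0663).

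Pdgfra (chromosome 5, 75152292 to 75198215, plus strand) was close to the floor in cortex, with 7 and 10 reads at 2 weeks, 3 and 4 reads at 4 weeks, and 10 and 10 reads in mock. On the CPM scale these were 1.31 and 1.62 at 2 weeks, 0.549 and 0.769 at 4 weeks, and 0.581 and 0.796 in mock. Neither comparison passed the test (log2 fold change 1.10 ± 0.50, adjusted p = 0.11, and -0.05 ± 0.57, adjusted p = 0.974).

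Among the myelin genes, Mbp had 34.6 and 42.2 CPM in cortex at 2 weeks, 37.4 and 35.6 CPM at 4 weeks, and 1.28 and 1.59 CPM in mock. The groups were far apart, by 4.74 ± 0.23 on the log2 scale at 2 weeks and 4.67 ± 0.23 at 4 weeks (adjusted p = 3.14e-07 and 3.17e-07). Mag (chromosome 7, 30899176 to 30914873, minus strand) had 21 and 30.5 CPM at 2 weeks, 20.7 and 18.1 CPM at 4 weeks, and 0.581 and 0.318 CPM in mock, where 10 and 4 reads stood behind the values. Its log2 fold change was the largest of the 8 genes, 5.76 ± 0.51 at 2 weeks and 5.34 ± 0.51 at 4 weeks (adjusted p = 1.6e-05 and 1.96e-05).

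Mobp (chromosome 9, 120149707 to 120181484, plus strand) had 5.99 and 5.03 CPM in cortex at 2 weeks, 3.11 and 3.07 CPM at 4 weeks, and 0.29 and 0.398 CPM in mock. Mock values rested on 5 reads in each library, and 4.49% of the 31-base words at its 3′ end also occur in other genes. It was higher in all 4 shPTB libraries, with a log2 fold change of 3.97 ± 0.50 at 2 weeks and 3.14 ± 0.51 at 4 weeks (adjusted p = 0.000147 and 0.000686). Mog, a late marker of the myelin surface (chromosome 17, 37010743 to 37023398, minus strand), gave 2 and 4 reads at 2 weeks, 2 and 1 reads at 4 weeks, and 0 reads in both mock libraries. These counts are at or near the floor, so no fold change is given.

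Cnp (chromosome 11, 100574904 to 100591729, plus strand) had the highest level of the 9 genes in every library. It had 213 and 228 CPM in cortex at 2 weeks, 253 and 243 CPM at 4 weeks, and 110 and 133 CPM in mock. It was higher by 0.86 ± 0.18 at 2 weeks and 1.03 ± 0.18 at 4 weeks (adjusted p = 0.00331 and 0.000901) on the log2 scale. Scaled to total reads, these values were 0.14 (adjusted p = 0.37) and -0.04 (adjusted p = 0.806), so Cnp was called higher relative to other genes but not per total read. Cnp shares 154 exonic bases (4.23% of its exons) with Dnajc7 on the other strand, and the sources used here do not say whether counting used strand.

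Under total-read scaling, the median log2 fold change of all genes moved to -0.85 at 2 weeks and -1.21 at 4 weeks in cortex, and to -0.74 and -1.01 in midbrain. Sox10, Mbp, Mag and Mobp in cortex still rose with this scaling, by 3.25, 4.02, 5.0 and 3.26 at 2 weeks and by 3.25, 3.59, 4.25 and 2.08 at 4 weeks. Of all genes called in cortex, 1208 were then higher and 6109 lower at 2 weeks, beside 2549 higher and 2568 lower with TMM, and 854 higher and 8347 lower at 4 weeks, beside 2705 and 3048. In midbrain 1167 were higher and 5666 lower at 2 weeks, beside 2317 and 2153, and 1090 higher and 7238 lower at 4 weeks, beside 2736 and 2985.

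Sequence is shown around the starts of Mobp, Mag and Cnp, the called myelin genes with a RefSeq window. It holds short motifs named for SOX factors and for MYRF. The windows run from 250 bases before to 50 after the RefSeq start on GRCm38.p6, 5′ to 3′ on the strand of the gene. Capitals mark matches, on either strand, to the SOX core (ACAAAG or ACAATG, so also CTTTGT or CATTGT) or to the MYRF core (CTGGCAC, so also GTGCCAG). The Mobp window is chr9:120149492-120149791 on the plus strand, the Mag window chr7:30914814-30915113 on the minus strand and the Cnp window chr11:100574689-100574988 on the plus strand.
Mobp: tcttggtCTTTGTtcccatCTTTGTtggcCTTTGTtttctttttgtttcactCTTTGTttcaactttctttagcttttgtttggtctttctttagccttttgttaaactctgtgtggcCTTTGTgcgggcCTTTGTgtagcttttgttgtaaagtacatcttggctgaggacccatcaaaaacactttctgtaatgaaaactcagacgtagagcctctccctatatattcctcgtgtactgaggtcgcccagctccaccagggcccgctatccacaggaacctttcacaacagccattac
Mag: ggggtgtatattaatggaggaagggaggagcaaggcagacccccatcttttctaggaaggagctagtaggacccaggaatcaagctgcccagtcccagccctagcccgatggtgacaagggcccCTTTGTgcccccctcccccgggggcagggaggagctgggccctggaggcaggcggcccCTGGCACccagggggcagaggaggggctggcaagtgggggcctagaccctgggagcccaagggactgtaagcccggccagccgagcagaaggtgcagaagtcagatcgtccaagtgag
Cnp: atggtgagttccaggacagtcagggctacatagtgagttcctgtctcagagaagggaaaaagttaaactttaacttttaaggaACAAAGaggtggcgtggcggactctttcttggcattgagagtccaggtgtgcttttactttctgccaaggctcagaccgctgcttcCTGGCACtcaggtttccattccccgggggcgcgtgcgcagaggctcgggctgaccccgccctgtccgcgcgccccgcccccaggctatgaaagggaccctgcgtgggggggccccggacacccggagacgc

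The Mobp window held 6 copies of the SOX core, all read as CTTTGT, at bases -243 to -120 from the start. Among 32851 RefSeq windows of this length, 28.6% held at least 1 SOX core and 0.00304% held as many as Mobp. The Mobp window is itself counted in both shares. Mag and Cnp held 1 SOX core each and 1 MYRF core each, and the MYRF core was found in 5.01% of windows. Windows were on hand for 6 of the 9 genes. Of the others among them, Olig2 held 1 SOX core, and Pdgfra and Mog held neither motif. E-boxes of the forms CAGATG and CAGCTG, the kind that OLIG proteins bind, were in 30.6% of windows and in that of Pdgfra alone among the 6. No matches overlapped in the windows shown, and matches describe letters, not binding. Mag has several RefSeq windows, and the one shown starts nearest to its main transcript.

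In midbrain Sox10 and Mag rose at both times, Mobp and Pdgfra at 2 weeks, and Mbp as a whole gene and Cnp did not pass the test at either. Against midbrain mock, 4 of the 8 genes rose and 1 fell at 2 weeks, and 2 rose and 1 fell at 4 weeks. Over all tested genes, 30.6% were called at 2 weeks (15.9% higher, 14.7% lower) and 39.2% at 4 weeks (18.7% higher, 20.4% lower). The median log2 fold change of the 8 was 1.0 at 2 weeks and 0.67 at 4 weeks, beside -0.07 and -0.15 over all genes. Both midbrain comparisons share their 2 mock libraries.

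Sox10 had 11.7 and 14.3 CPM in midbrain at 2 weeks, 18.8 and 19.6 CPM at 4 weeks, and 3.09 and 4.69 CPM in mock. Its log2 fold change was 1.74 ± 0.24 at 2 weeks and 2.3 ± 0.25 at 4 weeks (adjusted p = 0.00037 and 4.47e-05), with no overlap between groups. Olig1 had 17.0 and 20.1 CPM at 2 weeks, 13.8 and 14.3 CPM at 4 weeks, and 15 and 16.2 CPM in mock, and passed the test at neither time (0.25 ± 0.17, adjusted p = 0.298, and -0.15 ± 0.18, adjusted p = 0.525).

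Olig2 had 5.88 and 6.40 CPM in midbrain at 2 weeks, 4.56 and 5.09 CPM at 4 weeks, and 12.6 and 19.5 CPM in mock. It fell by 1.38 ± 0.27 (adjusted p = 0.0031) and by 1.73 ± 0.28 (adjusted p = 0.000763) on the log2 scale, and these falls kept their call in all 22 alternatives each. Pdgfra had 21 and 16 reads at 2 weeks, 10 and 7 at 4 weeks, and 8 and 7 in mock, or 2.38 and 1.77, 1.38 and 0.937, and 0.434 and 0.449 CPM. It was higher at 2 weeks (2.20 ± 0.48, adjusted p = 0.00545), a call lost without the first 2-week library (adjusted p = 0.0577), and did not pass at 4 weeks (1.37 ± 0.51, adjusted p = 0.0538).

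Mag had 1.58 and 3.09 CPM in midbrain at 2 weeks, 1.66 and 2.41 CPM at 4 weeks, and 0.488 and 0.0642 CPM in mock, from 9 reads and 1 read. Its log2 fold change was 2.96 ± 0.60 at 2 weeks with an adjusted p of 0.00363. At 4 weeks it was 2.76 ± 0.62 with an adjusted p of 0.00543. The size depends on the mock library: without the first it was 4.91 and 4.71, and without the second 2.23 and 2.03. The call at 4 weeks was lost without the second 4-week library (adjusted p = 0.0529).

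Mobp had 0.792 and 1.77 CPM in midbrain at 2 weeks, 0.553 and 0.67 CPM at 4 weeks, and 0.325 and 0.193 CPM in mock, all from 16 reads or fewer. It passed at 2 weeks (2.23 ± 0.54, adjusted p = 0.00929) but not without the second 2-week library (1.55, adjusted p = 0.134), and not at 4 weeks (1.18 ± 0.61, adjusted p = 0.149). Cnp had 188 and 173 CPM at 2 weeks, 222 and 208 CPM at 4 weeks, and 209 and 243 CPM in mock. Neither difference passed the test, -0.33 ± 0.17 (adjusted p = 0.178) and -0.07 ± 0.17 (adjusted p = 0.77). At 2 weeks both shPTB libraries lay below both mock libraries. The 2-week value was -0.43 without both first mock libraries and -0.21 without both second ones. Scaled to total reads, Cnp was called lower at both times (-0.99 and -0.93). Mog gave 0 and 1 reads at 2 weeks and 0 reads in the other 4 midbrain libraries.

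**Figure D2:**
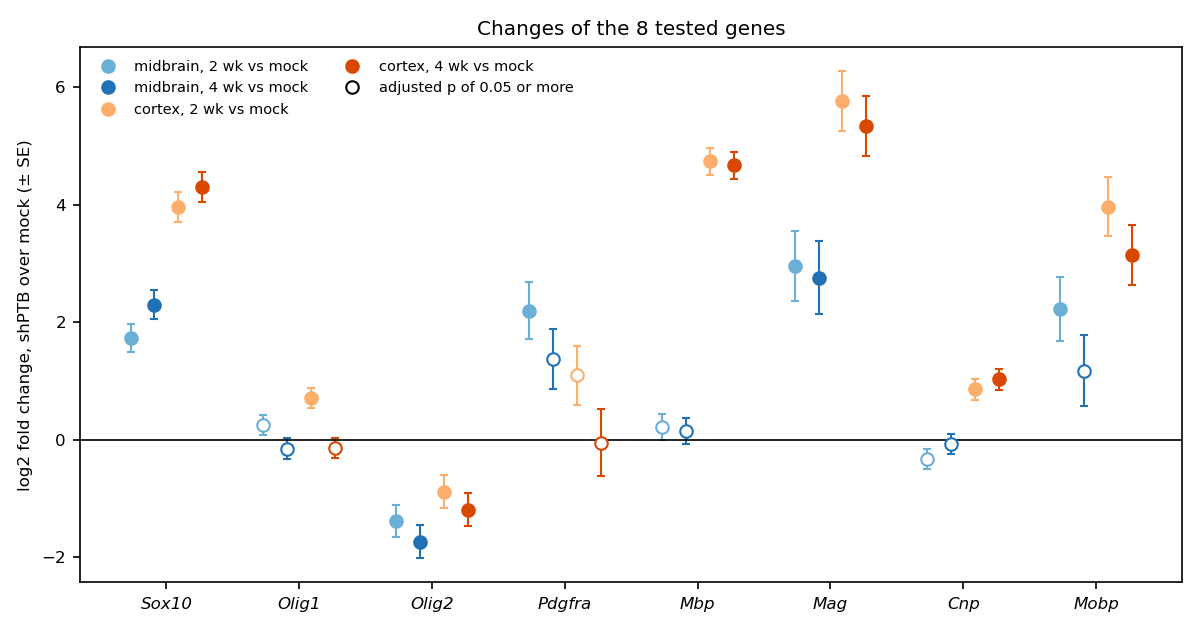
Log2 fold change of shPTB over mock (± SE, edgeR) for the 8 tested genes, with midbrain at 2 and 4 weeks to the left of cortex at 2 and 4 weeks for each gene. Open circles have an adjusted p of 0.05 or more. Mbp is near 0 in midbrain and above 4 in cortex, and Olig2 is below 0 in all 4 comparisons.

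Mbp in midbrain had 4.3 and 4.08 CPM at 2 weeks, 3.73 and 4.29 CPM at 4 weeks, and 3.31 and 3.92 CPM in mock, and its log2 fold change was 0.22 ± 0.22 (adjusted p = 0.478) and 0.15 ± 0.22 (adjusted p = 0.614). Per total read, these values were -0.44 (adjusted p = 0.109) and -0.71 (adjusted p = 0.019). The locus (chromosome 18, 82475146 to 82585637, plus strand, GRCm38) has an upstream start, that of the Golli unit, whose products are also found outside oligodendrocytes, and a downstream start, that of the classic myelin proteins. The upstream transcript opens 79324 bases before the first of 6 classic transcripts, and ends at 82558703, whereas the classic transcripts end at 82585626 to 82585637. The libraries were primed from the 3′ side of RNA, and the ends of this 1 upstream transcript and the 6 classic ones differ. Only transcripts with assigned reads were compared, of 16 annotated for the gene. The split therefore follows the assignment of reads to transcripts, and 3′ ends alone do not settle the start of each read. This split was chosen after the values had been seen.

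Golli reads were 34.3 and 37.9% of Mbp reads in midbrain at 2 weeks, 25.9 and 28.1% at 4 weeks, and 73.9 and 65.6% in mock. In cortex they were 1.62 and 3.08% at 2 weeks, 1.49 and 1.62% at 4 weeks, and 90.9 and 50% in mock. Most Mbp reads of mock cultures were thus assigned to the upstream transcript, except in the second cortex mock library, where 10 reads fell on each form. Classic Mbp had 2.83 and 2.54 CPM in midbrain at 2 weeks, 2.76 and 3.08 CPM at 4 weeks, and 0.868 and 1.35 CPM in mock. In cortex it had 34.1 and 40.9 CPM at 2 weeks, 36.8 and 35.0 CPM at 4 weeks, and 0.116 and 0.796 CPM in mock.

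The classic form was higher in midbrain too, by 1.28 ± 0.44 at 2 weeks and 1.40 ± 0.45 at 4 weeks (adjusted p = 0.0467 and 0.0286) on the log2 scale. These 2 calls are weak: without the first midbrain mock library they were 0.98 (adjusted p = 0.194) and 1.10 (adjusted p = 0.125), and scaled to total reads 0.63 (adjusted p = 0.208) and 0.55 (adjusted p = 0.251). The call at 2 weeks was also lost without either 2-week midbrain library (adjusted p = 0.188 and 0.132), or any of the other 6 shPTB libraries (0.0716 to 0.0752). The call at 4 weeks was also lost without either 4-week midbrain library (0.0947 and 0.139). In cortex the classic form rose by 6.46 ± 0.46 at 2 weeks and 6.39 ± 0.47 at 4 weeks (adjusted p = 3.56e-06 and 2.71e-06). Cortex mock held only 2 and 10 such reads, and without the first or the second of these libraries the 2-week value was 5.52 or 8.18. The Golli form passed in no comparison with mock, with log2 fold changes of -0.73 ± 0.42 and -1.19 ± 0.44 in midbrain (adjusted p = 0.208 and 0.0531) and -0.06 ± 0.50 and -0.80 ± 0.56 in cortex (0.935 and 0.282). Reads of the 6 classic transcripts moved between near-identical forms from library to library, so they are given as a sum.

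**Figure D3:**
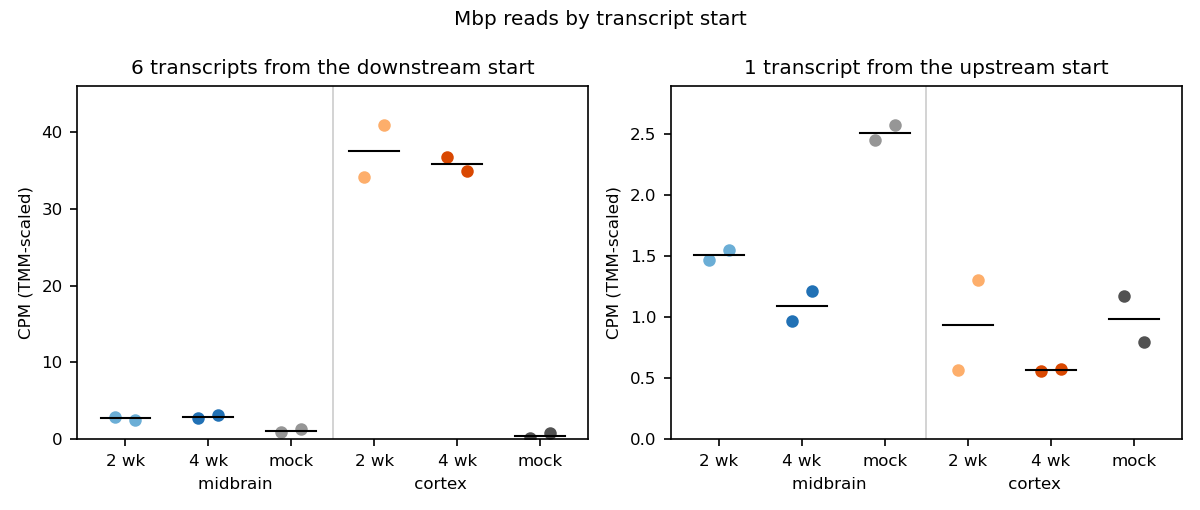
CPM (TMM-scaled) of Mbp reads assigned to the 6 transcripts of the downstream, classic start (left) and to the 1 transcript of the upstream, Golli start (right), on linear axes from 0 with different scales. Points are libraries and lines are means of 2, with midbrain left of cortex. Classic reads reach 34.1 to 40.9 CPM in shPTB cortex libraries and stay at or below 3.08 CPM in all other libraries.

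The difference between the regions' responses was tested as an interaction, midbrain minus cortex. At 2 weeks 2 of the 8 genes passed, both with the smaller response in midbrain, beside 0.685% of all genes (0.260% lower). These were Sox10 (-2.22 ± 0.34, adjusted p = 0.0138) and Mbp (-4.53 ± 0.32, adjusted p = 0.000117). At 4 weeks 3 of 8 passed, beside 2.55% of all genes (1.90% higher, 0.644% lower): Sox10 (-2.0 ± 0.34, adjusted p = 0.00889), Mbp (-4.52 ± 0.32, adjusted p = 7.26e-05) and Cnp (-1.10 ± 0.25, adjusted p = 0.0411). The Mbp interaction kept its call in all 22 alternatives at each time. That of Sox10 lost it at 2 weeks without any 1 of the 4 libraries of 2 weeks (adjusted p = 0.0642 to 0.118), and at 4 weeks without any 1 of the 4 libraries of 4 weeks (0.0506 to 0.0651). With the transcript length offset it was lost at both times (adjusted p = 0.156 and 0.112). That of Cnp lost it in 11 of 22 alternatives, among them RLE size factors (adjusted p = 0.0511), the length offset (0.0669), leaving out the second midbrain mock library (0.0727) and leaving out any 1 of the 8 shPTB libraries (0.0983 to 0.224).

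For Mag and Mobp the interaction did not pass, and their responses are not shown to differ. Mag gave -2.80 at 2 weeks and -2.59 at 4 weeks (adjusted p = 0.27 and 0.208), and passed with no count filter (adjusted p = 0.0106 and 0.016) and without both second mock libraries (0.0132 and 0.0178). Mobp gave -1.74 (adjusted p = 0.502) and -1.96 (adjusted p = 0.322). Cnp at 2 weeks gave -1.19 (adjusted p = 0.0677), and was called in 7 of 22 alternatives.

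Set side by side at 2 weeks, midbrain was lower than cortex for 5 of 8 genes, beside 2.94% of all genes called (2.01% higher, 0.931% lower). The log2 differences, midbrain over cortex, were -2.76 for Sox10 (adjusted p = 0.000374), -0.99 for Olig1 (0.0133), -3.19 for Mbp (0.000168), -3.45 for Mag (0.00218) and -2.09 for Mobp (0.0319). At 4 weeks 4 of 8 were lower, beside 7.99% of all genes called (5.48% higher, 2.51% lower): Sox10 by -2.54 (0.000103), Mbp by -3.18 (2.82e-05), Mag by -3.24 (0.0014) and Mobp by -2.32 (0.02). The Olig1 and Mobp calls at 2 weeks were lost without any 1 of the 4 libraries of that time (Olig1 0.0901 to 0.175, Mobp 0.0819 to 0.263), and that of Mobp also without any 1 library of 4 weeks (0.0608 to 0.0614). Both were also lost when scaled to total reads (Olig1 0.0649, Mobp 0.0562) and with the length offset (Olig1 0.0688, Mobp 0.0608). The Mobp call at 4 weeks was lost without any 1 of the 4 libraries of 4 weeks (0.0985 to 0.146) and with the length offset (0.154).

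In mock cultures 2 genes were called higher in midbrain. Midbrain was higher than cortex for Mbp (log2 difference 1.33 ± 0.23, adjusted p = 0.0124) and Cnp (0.90 ± 0.18, adjusted p = 0.0238), beside 2.19% of all genes called (1.25% higher). Neither call held without the first cortex mock library (adjusted p = 0.0902 and 0.0648) or the second midbrain mock library (0.0586 and 0.091) or with the length offset (0.145 and 0.0622), and that of Cnp was lost without any 1 of the 8 shPTB libraries (0.0654 to 0.072). The Mbp call was for the whole gene, and with reads split by start neither form passed between mock regions. The Golli form gave 1.33 ± 0.41 (adjusted p = 0.188) and the classic form 1.38 ± 0.54 (adjusted p = 0.382). Mock libraries of the same number deviated together between regions, with a correlation of 0.72 over 14607 genes. With a replicate block in mock libraries only, a fit chosen after the data were seen, 4 of the 8 genes were called: Mbp and Cnp were higher in midbrain (adjusted p = 0.000338 and 2.79e-09), and Sox10 (-0.55, adjusted p = 0.0279) and Olig1 (-0.53, adjusted p = 0.00307) were lower.

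Between 4 and 2 weeks of shPTB in midbrain, 0 of the 8 genes passed by edgeR or by DESeq2, beside 2.66% of all genes by edgeR (0.958% higher, 1.70% lower), while 2 of the 8 had an unadjusted p under 0.05. These were Sox10 (0.56 ± 0.23, adjusted p = 0.24) and Olig1 (-0.40 ± 0.18, adjusted p = 0.277), and both passed without both first mock libraries or both second ones. In cortex Olig1 alone passed, lower at 4 weeks (-0.85 ± 0.18, adjusted p = 0.0306), beside 2.77% of all genes (2.22% lower). The Olig1 call was lost without any 1 of the 8 shPTB libraries (0.0643 to 0.258), with no count filter (0.052) and with the length offset (0.178).

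Levels between genes were compared on the deposited TPM scale, which divides by transcript length and is not TMM-scaled. Cnp came first in every group, with 25.6, 30.5 and 59.6 TPM in midbrain at 2 weeks, 4 weeks and mock, and 32.1, 24.8 and 29.8 TPM in cortex. Sox10 came next in cortex at 2 and 4 weeks (12.4 and 9.84 TPM), while in cortex mock (0.94 TPM) it stood below Olig1 (6.59 TPM) and Olig2 (3.94 TPM). In shPTB cortex Mbp (5.16 and 3.32 TPM) and Mag (3.81 and 2.03 TPM) also stood above Olig2 (0.82 and 0.362 TPM). Neighbours in this order whose libraries overlapped in midbrain were Mbp and Mag, and Pdgfra and Mobp, at 2 weeks, and in mock Olig2 and Olig1, Mbp and Sox10, Mag and Mobp, and Mobp and Pdgfra. In cortex they were Olig1 and Mbp, and Olig2 and Mobp, at 2 weeks, Olig1 and Mag at 4 weeks, and Mbp and Mag in mock. On this scale Pdgfra was last in cortex at 2 and 4 weeks, and Mog was last in the other 4 groups. By CPM, which does not divide by length, Mog lay below Pdgfra in cortex too. The means were 0.512 against 1.47 CPM at 2 weeks and 0.279 against 0.659 CPM at 4 weeks. As the libraries were primed from the 3′ side of RNA, dividing by length can place long transcripts too low.

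Across the 12 libraries, Sox10, Mbp, Mag and Mobp followed one another on the log2(CPM + 1) scale, with Pearson r of 0.91 to 0.97 between any pair of them. Sox10 with Olig1 gave 0.54, with Pdgfra 0.25 and with Olig2 -0.60. These values describe 6 groups of 2 libraries that share depth and scaling within a group. By the rule of highest r with the mean profile of the tested myelin genes, among 7854 genes of at least 5 CPM, the most alike were Slc13a5 (0.957), Klk6 (0.956), Sfxn1 (0.942), Dennd4b (0.941) and Gnao1 (0.940). For the lineage profile they were Ccl6 (0.973), Ina (0.942), Pcx (0.926), Igsf21 (0.926) and Add2 (0.915). The lineage genes did not all follow one another (Olig1 with Olig2 0.05, Olig2 with Pdgfra -0.59). Their mean profile therefore mixes unlike patterns.

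Other genes of the pathway were read as lists, with the same test and the background shares given above for each comparison with mock. Among 9 tested of 10 other lineage factors, none rose and 5 fell in midbrain at 2 weeks, 1 rose and 5 fell at 4 weeks, 2 rose and 3 fell in cortex at 2 weeks, and 3 rose and 2 fell at 4 weeks. Their median log2 fold changes were -0.88, -0.88, 0.10 and -0.07. Sox8, the close relative of Sox10, fell in all 4 comparisons, to 1.12 and 0.956 CPM in midbrain at 2 and 4 weeks, against 8.66 CPM in mock, and to 1.36 and 2.51 CPM in cortex, against 6.05 CPM in mock (log2 fold change -2.94, -3.16, -2.12 and -1.26, adjusted p = 0.000349, 0.000238, 0.00305 and 0.0262). Tcf7l2, a Wnt effector needed for oligodendrocyte differentiation, also fell in all 4 (-1.0, -1.62, -1.40 and -0.92). Nkx6-2, a homeobox factor expressed in myelinating cells, averaged 24.9 and 35.2 CPM in cortex at 2 and 4 weeks, against 5.61 CPM in mock (2.16 ± 0.27, adjusted p = 0.000137, and 2.66 ± 0.27, adjusted p = 2.64e-05). In midbrain Nkx6-2 already averaged 35.1 CPM in mock, and 42.4 and 70.4 CPM at 2 and 4 weeks, so shPTB cortex did not exceed midbrain at either time. Chd7, a chromatin remodeller that acts with Sox10, fell in midbrain at 4 weeks (-1.12, adjusted p = 0.00203). Zfp536 fell in midbrain at 2 weeks (-1.36, adjusted p = 0.0076) and was higher in cortex at 4 weeks (0.98, adjusted p = 0.0393) with TMM but not per total read (-0.12, adjusted p = 0.802). Zfp488, a factor that acts with OLIG2 and was named after its values were seen, was called higher in cortex from 7 and 11 reads at 2 weeks and 0 and 13 at 4 weeks, against 0 reads in both mock libraries. Myrf, the partner of SOX10 at myelin genes, had 0 to 8 reads in every library.

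Of 6 tested inhibitors of 7, 1 rose and 1 fell in midbrain at 2 weeks, 2 fell at 4 weeks, and in cortex 2 fell at 2 weeks and 1 at 4 weeks, with medians of -0.09, -0.15, -0.42 and -0.07. Hes5, a Notch effector that holds back differentiation, averaged 1.45 CPM in midbrain at 2 weeks and 0.203 CPM at 4 weeks, against 6.44 CPM in mock (log2 fold change at 2 weeks -2.14 ± 0.38, adjusted p = 0.00171). In cortex Hes5 averaged 1.2 and 0.838 CPM at 2 and 4 weeks, against 2.79 CPM in mock. Id2, an inhibitor of bHLH factors, was higher in midbrain at 2 weeks (0.80, adjusted p = 0.0029) with TMM but not per total read (0.13, adjusted p = 0.607). Sox5, a SoxD factor that opposes Sox10, fell in midbrain at 4 weeks (-0.94, adjusted p = 0.0085) and in cortex at 2 weeks (-0.77, adjusted p = 0.0316). Id4 fell in cortex at 2 weeks (-0.55, adjusted p = 0.0169).

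Of the 15 precursor-stage genes 11 were tested, of which 3 rose and 3 fell in midbrain at 2 weeks, 2 rose and 5 fell at 4 weeks, 3 rose and 4 fell in cortex at 2 weeks, and 2 rose and 4 fell at 4 weeks, with medians of -0.34, -1.07, -0.60 and -0.44. Bcas1, a marker of newly forming and myelinating oligodendrocytes, rose most. It had 12.8 and 14.3 CPM in midbrain at 2 weeks, 19.6 and 19.7 CPM at 4 weeks, and 0.488 and 1.41 CPM in mock (log2 fold change 3.85 ± 0.41, adjusted p = 5.51e-05, and 4.39 ± 0.41, adjusted p = 1.88e-05). In cortex it had 50.2 and 47.9 CPM at 2 weeks, 48.0 and 49.4 CPM at 4 weeks, and 0.523 and 1.43 CPM in mock (5.70 ± 0.43, adjusted p = 4.67e-06, and 5.69 ± 0.43, adjusted p = 3.37e-06). Cspg4, which encodes the precursor antigen NG2, fell in midbrain to 1 and 7 reads at 2 weeks and 0 and 1 reads at 4 weeks, against 151 and 124 reads in mock. In cortex Cspg4 was also lower, with means of 0.793 and 0.659 CPM at 2 and 4 weeks, against 4.42 CPM in mock. C1ql1, enriched in precursors, fell in all 4 comparisons (-3.35, -3.13, -2.97 and -3.85), as did the matrix proteoglycan gene Vcan (-1.75, -2.86, -1.75 and -3.23). Ptprz1, a phosphatase of precursors and astrocytes, was higher in cortex (0.73 and 0.67) with TMM, but per total read it gave 0.00 and -0.42. In midbrain Ptprz1 averaged 190 and 132 CPM at 2 and 4 weeks, against 110 CPM in mock. Gpr17, a marker of committed precursors, had at most 1 read in any library.

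Of 31 other myelin and mature-stage genes, 18 were tested. Of these, 8 rose and 4 fell in midbrain at 2 weeks, 7 rose and 5 fell at 4 weeks, 9 rose and 3 fell in cortex at 2 weeks, and 6 rose and 5 fell at 4 weeks, with medians of 0.93, 0.87, 0.69 and 0.36. Klk6, a protease of mature oligodendrocytes, had 13 and 33 reads in midbrain at 2 weeks, 34 and 30 at 4 weeks, and 0 and 2 in mock. In cortex it had 162 and 182 reads at 2 weeks, 187 and 180 at 4 weeks, and 0 and 1 in mock. Apod, a lipid carrier also made by astrocytes and fibroblasts, rose to 155 and 252 CPM in midbrain, against 3.82 CPM in mock, and to 98.4 and 122 CPM in cortex, against 17.7 CPM in mock. Enpp2, the lysophospholipase autotaxin, rose to 69.1 and 43 CPM in midbrain, against 3.79 CPM in mock. In cortex Enpp2 averaged 20.9 and 10.2 CPM at 2 and 4 weeks, against 7.03 CPM in mock. Mal, a membrane proteolipid of compact myelin, fell in all 4 comparisons (-3.19, -2.72, -2.82 and -4.51). Gsn, the actin-severing protein gelsolin, fell in midbrain (-2.62 and -2.55). In cortex Gsn was also lower, with 1.42 and 0.183 CPM at 2 and 4 weeks, against 4.14 CPM in mock. Opalin had 1 read in all, and S1pr5, Fa2h and Ugt8a were at 0 reads in most groups.

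**Figure D4:**
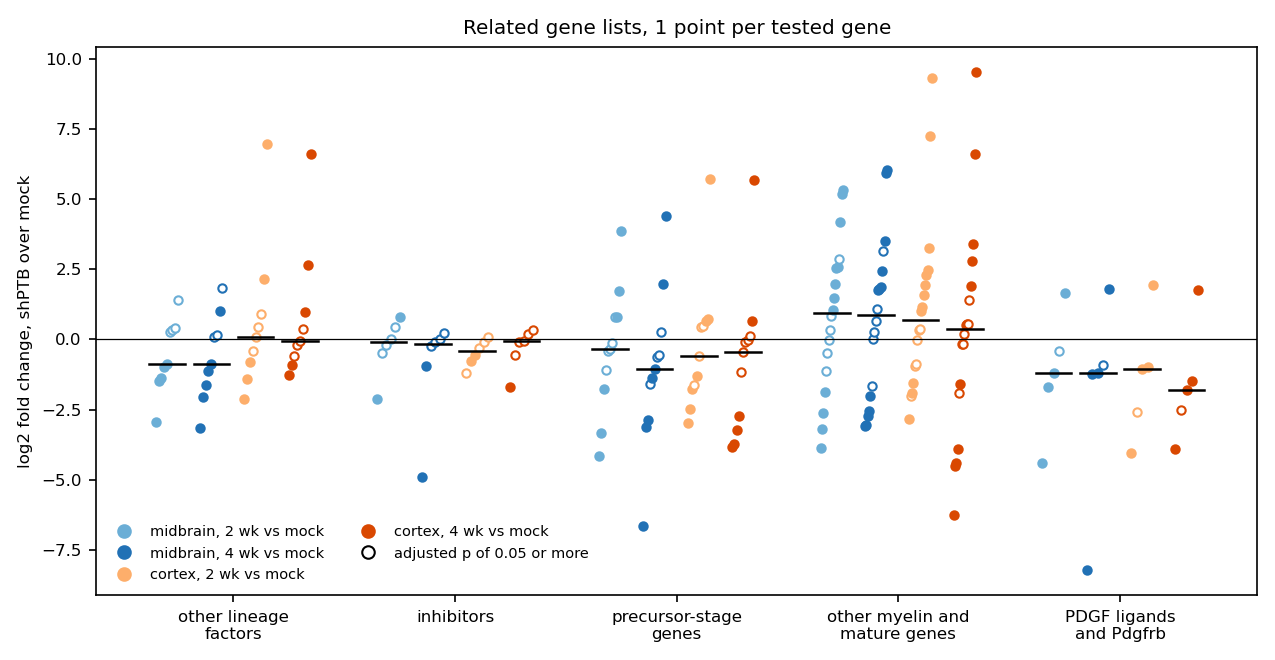
Log2 fold change of shPTB over mock for each tested gene of 5 related lists, with midbrain at 2 and 4 weeks left of cortex at 2 and 4 weeks, and the median as a black line. Filled points passed at adjusted p under 0.05. With TMM scaling each list holds genes on both sides of 0, and the highest points among myelin and mature genes are those of Klk6 in cortex, whose mock libraries held 1 read.

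Of 5 genes of the PDGF system, all tested (4 PDGF ligands and Pdgfrb), 1 rose and 3 fell in each comparison with mock, and the median was -1.21, -1.20, -1.05 and -1.80. Pdgfa averaged 3.8 and 3.74 CPM in midbrain at 2 and 4 weeks, against 8.81 CPM in mock, and 4.1 and 2.9 CPM in cortex, against 8.06 CPM in mock (-1.21, -1.24, -0.98 and -1.48, adjusted p = 0.0163, 0.0132, 0.0437 and 0.00738). Pdgfc fell likewise (-1.71, -1.20, -1.05 and -1.80). The third gene that fell was Pdgfb, and the gene that rose was Pdgfrb, the receptor of pericytes, both named after their values were seen. Pdgfrb had 23 and 19 reads in midbrain at 2 weeks and 15 and 10 reads in mock (1.67, adjusted p = 0.0117). Per total read, no gene of this list was called higher. The 2 tested Schwann and neural crest markers did not move one way. In cortex 1 rose and 1 fell at each time. In midbrain 1 rose and 0 fell at 2 weeks, and 0 rose and 1 fell at 4 weeks. Of the 2, Ngfr, the p75 neurotrophin receptor, was higher at 2 weeks in midbrain (6.65 CPM, against 0.377 CPM in mock, 4.08 ± 0.49, adjusted p = 0.000133) and in cortex (6.52 CPM, against 0.526 CPM in mock, 3.53 ± 0.48, adjusted p = 0.00028). At 4 weeks Ngfr averaged 0.754 CPM in midbrain and 2.44 CPM in cortex.

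Per total read the lists shifted with all genes. Other lineage factors then gave none higher and 5 lower in midbrain at 2 weeks, none and 6 at 4 weeks, 2 and 5 in cortex at 2 weeks, and 2 and 5 at 4 weeks. Precursor-stage genes gave 2 and 5, 2 and 8, 1 and 5, and 1 and 9 in the same order, and inhibitors none higher and 4, 6, 5 and 6 lower. Other myelin and mature genes gave 7 and 6, 5 and 7, 6 and 5, and 3 and 10. PDGF genes gave none higher and 3, 3, 4 and 4 lower.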

How the data were processed

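RNA of 12 astrocyte cultures was sequenced by the authors. Library construction, per the labels' protocols, used a biotin-tagged oligo(dT) primer on total RNA, streptavidin beads and random priming of the second strand. This favours 3′ ends, and molecular identifiers are not mentioned. Salmon 0.14.1, cutadapt 2.3, DESeq2 and the build mm10 are named in the submitters' processing notes. The deposited estimated counts (expected counts per transcript, from Salmon) were not normalized, and 55.1% of those above 0 were not whole within 0.001. The deposited TPM values are scaled by the authors' software for effective length and library, and were used only for order between genes.

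Here transcripts were matched to GENCODE M21, of which 140137 of 140658 had a gene, and the other 521 held 0.0547 to 0.129% of reads. Counts were summed per gene, rounded and fitted over all 6 groups with edgeR 4.0.16 in R 4.3.3 (TMM, filterByExpr with a count minimum of 10 and a total minimum of 15, quasi-likelihood F test, Benjamini-Hochberg threshold 0.05). Groups come from the labels, and 11 contrasts were tested, with a common dispersion of 0.055 and 6 residual degrees of freedom. Alternatives were DESeq2 1.42.0, RLE size factors, scaling to total reads, other count filters, a transcript length offset, a replicate block and leaving out each library. Chosen later, with the data in view, were fits that left out both first or both second mock libraries, a block in mock libraries only, a fit without 37 mitochondrially encoded genes, and the split of Mbp.

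All 9 genes are named. From related lists, up to 4 called genes a list with the largest change and at least 5 CPM in the higher group could be named in each comparison with mock, and marker lists of other cell types are given mainly as sums. Members and lists were chosen with earlier results of these data known. Promoter windows are from RefSeq, and motifs were matched on both strands. Results of some genes of these lists are not reported here.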

Additional observations from a re-analysis of the deposited data

Results flagged for a closer look

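The response to shPTB differed between regions, by a test of the difference itself, for 3 of the 8 tested genes, and the calls of Sox10 and Cnp depend on the settings. The values are the midbrain log2 fold change minus that of cortex, by edgeR. For Sox10 the 2-week value was -2.22 (adjusted p = 0.0138) and the 4-week value -2.0 (adjusted p = 0.00889), with a rise in both regions, and the call was lost in 5 of 22 alternatives at each time. For Mbp the 2-week value was -4.53 (adjusted p = 0.000117) and the 4-week value -4.52 (adjusted p = 7.26e-05), kept in all 22 alternatives at each time, with a call in cortex and none in midbrain for the whole gene with TMM scaling. For Cnp the value was -1.10 at 4 weeks (adjusted p = 0.0411), lost in 11 of 22 alternatives. With TMM scaling the 4-week change of Cnp passed in cortex only, whereas scaled to total reads it passed in midbrain only (-0.93, adjusted p = 0.000231) and not in cortex (-0.04, adjusted p = 0.806).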

How the results depend on the processing

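Counts of called genes among the 8 are given after those over all genes, with the value of the settings in use in brackets. Scaled to total reads, 9201 genes were called in cortex at 4 weeks (5753), 6833 in midbrain at 2 weeks (4470) and 933 in cortex at 4 against 2 weeks (405), and 6 of the 8 in midbrain at 4 weeks (3) and 3 between regions at 2 weeks (5). With no count filter, calls were 793 for cortex (405) and 860 for midbrain (388) at 4 against 2 weeks, 556 between mock regions (320), 826 between regions at 2 weeks (430), and 318 (100) and 754 (372) for the interactions at 2 and 4 weeks. Of the 8, that filter gave 0 in cortex at 4 against 2 weeks (1) and 4 for the 2-week interaction (2), and a strict filter gave 3 in midbrain at 2 weeks (5). A transcript length offset gave 160 genes between mock regions, 218 between regions at 2 weeks and 48 for the 2-week interaction. Of the 8 it gave 5 in midbrain at 4 weeks, 0 in cortex at 4 against 2 weeks, 0 between mock regions, 3 between regions at 2 weeks, and 1 for each interaction. DESeq2 gave 168 genes for the 2-week interaction. Without both first mock libraries, 1126 genes were called between mock regions, 1284 and 1773 for the interactions, and of the 8, 2 in cortex and 3 in midbrain at 4 against 2 weeks. Without both second ones, the counts were 8385 in cortex at 2 weeks (5117), 8413 and 8884 in midbrain at 2 and 4 weeks (4470 and 5721), 1443 between mock regions, and 1559 and 2077 for the interactions, and of the 8, 2 in cortex and 3 in midbrain at 4 against 2 weeks and 4 for the 2-week interaction. The cause of these shifts was not tested.

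Leaving out 1 library at a time, where a lone library is taken to vary like the other groups, gave 2424 to 5451 genes in midbrain at 2 weeks, 3305 to 6537 at 4 weeks, 2966 to 5926 in cortex at 2 weeks and 3686 to 6431 at 4 weeks. It gave 25 to 838 in midbrain and 43 to 652 in cortex at 4 against 2 weeks, and 200 to 325, 70 to 705 and 442 to 1521 between regions in mock, at 2 and at 4 weeks. The interactions gave 26 to 163 and 138 to 550. Of the 8 genes it gave 4 to 5 and 2 to 3 in midbrain, 5 to 7 and 5 to 6 in cortex, 0 to 0 in midbrain and 0 to 1 in cortex at 4 against 2 weeks, 0 to 2, 3 to 5 and 3 to 4 between regions, and 1 to 3 for each interaction.

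Some directions turned, among them those of 2 called rises. Scaled to total reads, Olig1 in cortex at 2 weeks was -0.04 (0.72 with TMM) and Cnp in cortex at 4 weeks -0.04 (1.03 with TMM). Olig1 in midbrain at 2 weeks was then -0.42, and Mbp in midbrain -0.44 and, at 4 weeks, -0.71 (adjusted p = 0.019). With the length offset, Olig1 at 4 weeks was 0.17 in midbrain and 0.28 in cortex, and Cnp in midbrain 0.07 at 2 weeks and 0.58 at 4 weeks (adjusted p = 0.0268). Cnp in midbrain at 4 weeks was 0.04 without the second midbrain mock library or both second mock libraries. Leaving out 1 library, the 4-week values lay between -0.18 and 0.04 for Cnp in midbrain and between -0.31 and 0.17 for Pdgfra in cortex. Pdgfra was 0.17 without the second cortex mock library, the first 4-week library or both second mock libraries.

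Replicate numbers were tested as a pairing: replicate differences of mock cortex and mock midbrain correlated at 0.72, and those of the other 14 pairs of groups at -0.03 to 0.03, so same-numbered libraries deviated together in mock but not in the other pairs of groups, and the labels name no shared source. A replicate block over all samples left all 56 printed fold changes of the 8 genes on their side of the threshold, and so did leaving out mitochondrially encoded genes. A replicate block in mock libraries only gave 4 of the 8 genes (2 higher and 2 lower in midbrain, against 2 and 0) and 2062 of all genes (320) between mock regions. Depth limits Mog, Mobp, Mag in mock and Pdgfra, which rest on few reads.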
